A study of Mus musculus with 46 samples.

Results

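Complement and coagulation factors are plasma proteins made mainly by hepatocytes, and their transcripts were followed in whole mouse liver after partial hepatectomy (PH, removal of 70% of the liver) and after a sham operation. The members were a list of 43 gene names, matched to the arrays by symbol with no threshold on measured values. Of these, 37 were measured, through 45 probe sets (the groups of short oligonucleotides on an array that together read 1 transcript), out of 8251 genes that the arrays name by a single symbol. C1s1, C3, C4b, C6, Cfd and F11 had no probe set of their own and were not analysed here. The 2 probe sets that read C4b are shared with C4a.

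All livers came from male CB6F1 hybrid mice, either young (5 to 6 months) or old (25 to 27 months). The 0 h livers are labelled as having no treatment and gave 3 arrays at each age. PH livers were taken 0.5, 1, 2 and 4 h after surgery, with 3 arrays at each age and time, and sham livers at the same 4 times, with 2 arrays each. These 18 groups made up 46 arrays. Surgery was done under avertin and isoflurane anaesthesia, and whether the 0 h mice were anaesthetised is not stated per group. Young mice came from Jackson Laboratories and old mice from the National Institute on Aging, so age and supplier cannot be told apart. The labels do not state that replicate arrays came from separate animals, and the p-values may then measure only technical spread between arrays.

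Complement is a cascade of proteases and binding proteins that marks microbes and damaged cells. Its classical arm starts with C1q on antibody, its lectin arm with mannose-binding lectins and their MASP proteases, and its alternative arm with factor B. All arms meet in the cleavage of C3 and end in the membrane attack complex of the terminal components. Coagulation is another protease cascade, started by tissue factor or by the contact system, in which thrombin turns fibrinogen into fibrin, antithrombin and protein C hold the process back, and plasmin removes the clot. Hepatocytes secrete most of these proteins, several of them as acute phase proteins whose synthesis follows interleukin-6, whereas C1q is made by macrophages, including the Kupffer cells of the liver. Interleukin-6 signalling, complement fragments and the urokinase system are known to take part in liver regeneration.

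The liver markers Alb (log2 signal 13.34 to 14.04) and Apoa1 (13.6 to 14.1) were bright on all arrays. Values are log2 signal, so a difference of 1 is a 2-fold change, and differences are given ± their standard error (SE). The sham arrays stood apart: on the first principal component, carrying 26.8% of the variance, they scored 7.75 to 30.3 and no other array scored above 6.27. The 3′ probe set for beta-actin averaged 11.4 to 11.9 at the sham times, 12.3 at 0 h and 12.5 to 12.7 at the PH times. Young 0 h replicate 3 read 10.76 on it, below every sham array, while the other 5 arrays at 0 h read 12.54 to 12.67. Where sham livers enter a comparison, the operation and whatever else set these arrays apart cannot be told apart. The mean of 9 hybridisation spike-in probe sets was 9.74 at 0 h, 9.61 at 0.5 h after PH, 8.31 at 1 h, 8.35 at 2 h and 10.03 at 4 h, and 9.34 to 9.48 at the sham times. Old PH 0.5 h replicate 3 read 7.68 on it, the lowest of all arrays, while the other PH arrays at 0.5 h read 9.60 to 10.65.

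The results turn most on the 3 fibrinogen chain genes, on tissue factor (F3) and the urokinase receptor (Plaur), and on plasma prekallikrein (Klkb1). The 250 bases before the start of each gene are shown here because all 3 fibrinogen chain genes rose from 2 to 4 h after PH, F3 and Plaur rose at 2 h, and Klkb1 fell after both operations. They are RefSeq sequences of build GRCm38.p6, written 5′ to 3′ on the strand of the gene. Capitals mark matches, on either strand, to 6 motifs: GTTAAT (hepatocyte nuclear factor 1), CTGGGA (the core of the type II interleukin-6 response element), TTGCNNAA (C/EBP), TTCNNNGAA (STAT), TGANTCA (AP-1) and an NF-kB motif, GGGA followed by any 4 bases and CC.
Fga: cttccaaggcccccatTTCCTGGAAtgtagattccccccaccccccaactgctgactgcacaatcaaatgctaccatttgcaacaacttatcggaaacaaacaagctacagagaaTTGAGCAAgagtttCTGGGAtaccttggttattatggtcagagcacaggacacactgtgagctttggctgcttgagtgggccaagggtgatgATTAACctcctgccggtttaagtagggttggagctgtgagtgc
Fgb: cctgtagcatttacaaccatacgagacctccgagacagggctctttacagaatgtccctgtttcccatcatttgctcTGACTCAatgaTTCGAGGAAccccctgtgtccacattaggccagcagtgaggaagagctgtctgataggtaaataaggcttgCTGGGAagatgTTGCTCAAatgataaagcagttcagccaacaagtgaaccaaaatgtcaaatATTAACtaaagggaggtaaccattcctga
Fgg: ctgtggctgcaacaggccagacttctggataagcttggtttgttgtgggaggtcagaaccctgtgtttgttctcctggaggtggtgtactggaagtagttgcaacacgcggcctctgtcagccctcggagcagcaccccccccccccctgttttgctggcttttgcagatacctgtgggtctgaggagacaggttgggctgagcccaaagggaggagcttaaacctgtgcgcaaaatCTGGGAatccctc
F3: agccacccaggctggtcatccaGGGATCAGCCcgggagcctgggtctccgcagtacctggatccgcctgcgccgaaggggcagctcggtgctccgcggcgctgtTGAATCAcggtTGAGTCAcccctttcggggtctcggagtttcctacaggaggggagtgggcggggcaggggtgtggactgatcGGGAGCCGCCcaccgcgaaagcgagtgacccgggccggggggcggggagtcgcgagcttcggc
Plaur: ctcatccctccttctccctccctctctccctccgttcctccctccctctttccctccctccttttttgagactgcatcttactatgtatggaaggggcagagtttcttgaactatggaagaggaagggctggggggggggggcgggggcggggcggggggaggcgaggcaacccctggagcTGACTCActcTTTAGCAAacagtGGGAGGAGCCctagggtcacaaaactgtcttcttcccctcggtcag
Klkb1: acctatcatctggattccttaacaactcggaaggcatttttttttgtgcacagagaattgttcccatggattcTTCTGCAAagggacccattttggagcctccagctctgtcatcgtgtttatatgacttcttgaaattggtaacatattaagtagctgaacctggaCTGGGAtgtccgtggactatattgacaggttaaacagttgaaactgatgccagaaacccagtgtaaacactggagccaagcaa
These windows lie at chr3:83025903-83026152 (Fga, + strand), chr3:83049864-83050113 (Fgb, - strand), chr3:83007474-83007723 (Fgg, + strand), chr3:121723287-121723536 (F3, + strand), chr7:24462233-24462482 (Plaur, + strand) and chr8:45294836-45295085 (Klkb1, - strand).

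The upstream windows of Fga and Fgb both held the hepatocyte nuclear factor 1, interleukin-6, C/EBP and STAT motifs, and that of Fgb also the AP-1 motif. In the Fgg window the interleukin-6 core CTGGGA was found, 13 to 8 bases before the start, and none of the other 5 motifs. F3 had 2 matches each to the AP-1 and NF-kB motifs, and Plaur 1 each to the AP-1, C/EBP and NF-kB motifs. Klkb1 had the interleukin-6 core and the C/EBP motif. Such short letters are common: among 32851 windows of the same length, 6.43% held the hepatocyte nuclear factor 1 motif, 27% the interleukin-6 core, 9.56% the C/EBP motif, 7.02% the STAT motif, 6.75% the AP-1 motif and 17.6% the NF-kB motif. Windows were at hand for 26 of the 37 measured genes. Of these, 5 (19.2%), 10 (38.5%), 6 (23.1%), 5 (19.2%), 4 (15.4%) and 7 (26.9%) held the motifs in the same order. The member shares were higher for each motif, and the difference was not tested. A match describes the sequence and does not show binding.

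At 0.5 and 1 h after PH few probe sets were called, among the members as among all probe sets. At 0.5 h none of the 45 probe sets differed from 0 h at an adjusted p under 0.05 in limma (Benjamini-Hochberg over 12422 probe sets), where 0.0886% of all probe sets did. Without adjustment, 4 had a p under 0.05, namely Klkb1 (a difference of -0.28), Proc (-0.16), Kng1 (0.14) and Serping1 (0.21). At 1 h only Klkb1 was called, against 3.72% of all probe sets. At 2 h 8 probe sets were called, 3 higher and 5 lower, against 12.8% of all (5.74% higher, 7.08% lower). At 4 h 13 were called, 3 higher and 10 lower, against 23.5% of all (11.5% higher, 12% lower). The 2 h count fell to 5 without young 0 h replicate 2 and to 4 without young PH 2 h replicate 2. Without young 0 h replicate 3, the array low in beta-actin, it stayed at 8, and the 4 h count was 14.

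**Figure D1:**
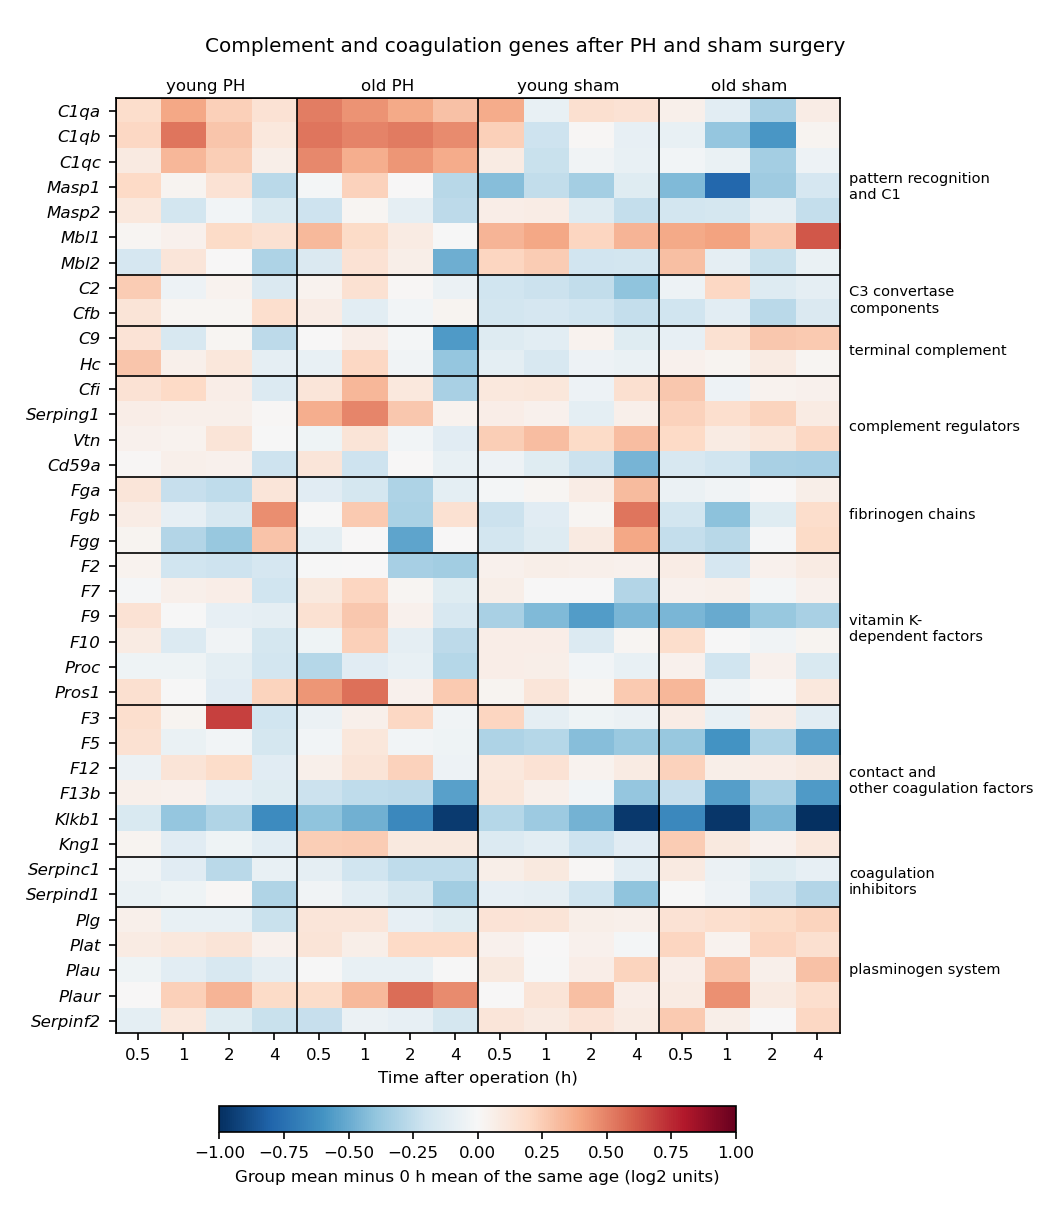
Heat map of the 37 measured genes (rows, ordered by role) across the operated groups (columns), coloured by the group mean minus the 0 h mean of the same age in log2 units. The colour scale ends at -1 and 1, and values beyond are drawn at its ends. Klkb1 is lowest at 4 h, and F9 and F5 are low in the sham columns.

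The signals of the fibrinogen chain genes dipped 2 h after PH, where Fgg and Fga passed the test, and all 3 rose from 2 to 4 h. Fibrinogen is built from the alpha, beta and gamma chains, encoded by Fga, Fgb and Fgg, and is a classical acute phase protein. The log2 signal of Fgg at 0 h was 11.94, 12.21 and 11.88 in young and 12.38, 12.22 and 12.17 in old livers. At 2 h after PH it was 11.63, 11.27 and 12.002 in young and 11.90, 11.70 and 11.58 in old livers. At 4 h it was 12.24, 12.42 and 12.23 in young and 12.23, 12.36 and 12.19 in old livers. All 6 arrays at 4 h were thus above all 6 at 2 h, while the 2 h and 0 h arrays overlapped. Sham livers read 12.02 and 12.18 (young) and 12.44 and 12.04 (old) at 2 h, and 12.38, 12.41, 12.41 and 12.49 at 4 h, so all sham arrays at 2 h were above all PH arrays of that time.

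Fga, the alpha chain gene, ran from 11.02 to 11.32 at 0 h (median 11.22). At 2 h after PH it read 10.87, 10.75 and 11.05 in young and 10.9975, 10.93 and 10.91 in old livers, so that 1 young array reached into the 0 h range. At 4 h it read 11.19, 11.38 and 11.23 in young and 11.07, 11.24 and 11.14 in old livers, all above the 2 h arrays. Fgb, the beta chain gene, spread widely at 0 h, from 10.98 to 11.85, and narrowly at 4 h after PH, from 11.63 to 11.77. Its 2 h arrays lay between 10.86 and 11.54, below all 4 h arrays.

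In the limma fit the 2 h difference from 0 h was -0.45 ± 0.15 for Fgg (adjusted p = 0.0402, n = 6 and 6) and -0.28 ± 0.08 for Fga (adjusted p = 0.0149). Fgb differed by -0.24 ± 0.17, which did not pass (adjusted p = 0.398). Against sham at 2 h the differences were -0.49 ± 0.17 for Fgg (adjusted p = 0.0223, n = 6 and 4) and -0.32 ± 0.09 for Fga (adjusted p = 0.00554). The Fgg call against 0 h held in only 3 of the 12 fits that left out 1 array, its adjusted p reaching 0.137 without young PH 2 h replicate 2, and it was lost with arrays centred on their medians (-0.44, adjusted p = 0.0548). That of Fga was lost among those 12 only without that same array (-0.25, adjusted p = 0.0535). Against sham, the Fga call held in all 10 fits without 1 array, and the Fgg call was lost without young PH 2 h replicate 2 (adjusted p = 0.0708), young sham 2 h replicate 2 (0.0879) or old sham 2 h replicate 1 (0.1).

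From 2 to 4 h after PH all 3 chains rose: Fgg by 0.60 ± 0.15 (adjusted p = 0.00758), Fgb by 0.55 ± 0.17 (adjusted p = 0.0329) and Fga by 0.29 ± 0.08 (adjusted p = 0.0137), each n = 6 and 6. This comparison was added after the data had been seen, and 13 member probe sets passed in it, against 12.2% of all probe sets. That count lay between 5 and 8 without any 1 of young PH 2 h replicates 1 and 2, old PH 2 h replicates 2 and 3, young PH 4 h replicates 1 and 2, and old PH 4 h replicates 1, 2 and 3. The Fgg rise held in each of the 12 fits without 1 array, the Fga rise in 11 and the Fgb rise in 3. Over the same interval in sham livers, where 0.137% of all probe sets and no member passed (3 had an unadjusted p under 0.05), Fgg differed by 0.25 (adjusted p = 0.733), Fgb by 0.41 (0.587) and Fga by 0.14 (0.691). For the difference between PH and sham in this change, where no member passed in limma (5 had an unadjusted p under 0.05) against 0.0242% of all probe sets, the values were 0.35 for Fgg (adjusted p = 0.563), 0.14 for Fgb (0.873) and 0.15 for Fga (0.662), so a rise particular to PH was not shown.

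The spike-in signal was low at 2 h after PH, where the fibrinogen signals dipped, and also at 1 h. As a covariate it overlaps with the PH times, and a fit with it cannot tell the 2 apart. With the spike-in mean as a covariate the 2 h difference from 0 h was -0.07 for Fgg (adjusted p = 0.886) and -0.09 for Fga (0.689). That from sham was -0.20 for Fgg (adjusted p = 0.369) and -0.17 for Fga (0.131), and the change from 2 to 4 h was 0.14 for Fgg (0.771), 0.19 for Fgb (0.748) and 0.06 for Fga (0.834). At 1 h, where the spike-in signal was 8.31, Fgg differed from 0 h by -0.14 (adjusted p = 0.64) and Fga by -0.20 (0.143).

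**Figure D2:**
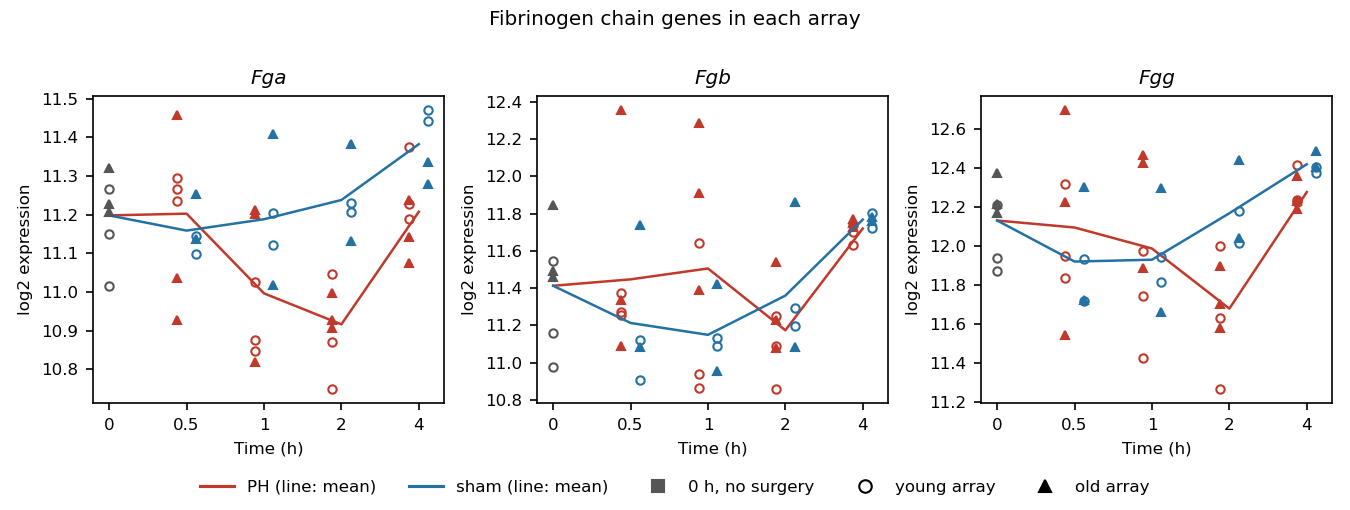
Log2 signal of Fga, Fgb and Fgg in every array, by hours after the operation (times equally spaced, not to scale), with ages and operations marked apart. The lowest Fgg value, 11.27, is a young PH array at 2 h, and all PH arrays at 4 h lie above those at 2 h for each chain.

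Tissue factor and the urokinase receptor rose at 2 h after PH. F3 encodes tissue factor, the membrane protein that starts coagulation with factor VIIa. It was dim at 0 h, from 4.58 to 4.85. At 2 h after PH it read 5.76, 5.48 and 4.90 in young and 4.88, 4.79 and 4.97 in old livers, so the 2 high arrays were both young, and the old array at 4.79 lay within the 0 h range. At 4 h it read 4.53, 4.43 and 4.53 in young and 4.66, 4.45 and 4.82 in old livers. The rise at 2 h was 0.45 ± 0.11 against 0 h (adjusted p = 0.00533) and 0.43 ± 0.12 against sham (adjusted p = 0.00712), and the change from 2 to 4 h was -0.56 ± 0.11 (adjusted p = 0.00108). With the spike-in covariate the 2 h difference was 0.28 from 0 h (adjusted p = 0.299) and 0.30 from sham (0.0898), and the call against sham was also lost without old sham 2 h replicate 2 (0.0539). The F test of a difference between the ages over the 4 times had an unadjusted p of 0.0464 for F3, and none of the 12422 probe sets passed adjustment in it.

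Plaur encodes the receptor that holds urokinase at the cell surface. Its signal ran from 5.87 to 6.16 at 0 h. At 2 h after PH it read 6.61, 6.20 and 6.26 in young and 7.01, 6.31 and 6.39 in old livers, all above the 0 h arrays. At 4 h it read 6.21, 6.16 and 6.28 in young and 6.17, 6.62 and 6.68 in old livers. The rise was 0.45 ± 0.10 at 2 h (adjusted p = 0.00354) and 0.33 ± 0.10 at 4 h (adjusted p = 0.0177), and the 4 h call did not hold when replicate 3 of old 0 h (adjusted p = 0.0501) or of old PH 4 h (0.063) was left out. With the spike-in covariate the 2 h difference was 0.41 (adjusted p = 0.0845). Against sham, Plaur did not pass, with differences of 0.25 ± 0.12 at 2 h (adjusted p = 0.0906) and 0.22 ± 0.12 at 4 h (0.173). In sham livers it was called higher than at 0 h at 1 h (0.29 ± 0.12, adjusted p = 0.0493), which held in 2 of 10 fits without 1 array and was 0.15 (0.406) without old sham 1 h replicate 2. Among the other plasminogen system genes, the activators Plat and Plau were not called against 0 h after PH at any of the 4 times, and plasminogen (Plg) was slightly lower at 4 h (-0.17, adjusted p = 0.0345).

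Of 11 measured markers of neutrophils and monocytes, S100a8 and S100a9 moved in the same livers. They were higher than at 0 h at 2 h after PH, by 1.80 and 1.51 (adjusted p = 0.00592 and 0.00383). At 2 h after sham surgery they were higher by 1.87 and 1.60 (0.00535 and 0.0032). No other marker of the list passed at 2 h after PH, and none was lower at either time. The mean of the 11 includes these genes, and by itself shows no shift of the others. It ran from 5.47 to 5.68 at 0 h, from 5.74 to 6.05 at 2 h after PH and from 5.86 to 6.18 at 2 h after sham surgery. The part of these markers in the F3 and Plaur differences was not tested.

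Prothrombin and antithrombin also fell at 2 h. F2, the gene of prothrombin, the precursor of thrombin, ran from 11.06 to 11.45 at 0 h. It read 11.05, 10.83 and 11.01 in young and 11.02, 10.98 and 11.04 in old PH livers at 2 h, all below the 0 h arrays. At 4 h it read 10.97, 10.996 and 11.03 in young and 10.98, 11.08 and 10.94 in old livers, with 1 old array in the 0 h range. The differences from 0 h were -0.27 ± 0.08 at 2 h (adjusted p = 0.0191) and -0.26 ± 0.08 at 4 h (adjusted p = 0.0143), and those from sham were -0.32 at both times (adjusted p = 0.00572 and 0.00792). Its 2 h call was lost without young 0 h replicate 2 (adjusted p = 0.0767), old 0 h replicate 1 (0.0538) or young PH 2 h replicate 2 (0.0657), and with the spike-in covariate (-0.09, adjusted p = 0.673). The 2 h call against sham was lost without old sham 2 h replicate 1 (adjusted p = 0.0697) and with the covariate (-0.18, 0.118).

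Serpinc1, which encodes antithrombin, the main inhibitor of thrombin, read 11.97, 12.21 and 11.79 in young and 12.18, 12.02 and 12.07 in old livers at 0 h. At 2 h after PH it read 11.86, 11.66 and 11.63 in young and 11.79, 11.98 and 11.73 in old livers, and the ranges overlapped. The difference was -0.26 ± 0.07 against 0 h (adjusted p = 0.00997), which held in all 12 fits without 1 array, and -0.21 against sham (adjusted p = 0.036). The call against sham held in only 3 of 10 fits without 1 array (adjusted p up to 0.148, without old sham 2 h replicate 1), and it was lost with median centring (0.0819), a replicate block (0.0689), array weights (0.0541) or the compared groups alone (0.0794). With the spike-in covariate the difference came to -0.11 against 0 h (adjusted p = 0.556) and -0.09 against sham (0.419).

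Klkb1 was called in more comparisons than any other member. It encodes plasma prekallikrein, which works with factor XII and kininogen in the contact system. At 0 h it read 8.04, 8.19 and 8.21 in young and 8.14, 8.53 and 8.36 in old livers. At 4 h after PH it read 7.48, 7.53 and 7.54 in young and 7.42, 7.59 and 7.15 in old livers, and at 4 h after sham surgery 7.36 and 6.997 in young and 7.47 and 7.21 in old livers. Every PH array at 1, 2 and 4 h and every sham array at all 4 times was below every 0 h array. The PH arrays at 0.5 h, from 7.55 to 8.26, overlapped with 0 h.

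After PH the Klkb1 difference from 0 h was -0.43 ± 0.10 at 1 h (adjusted p = 0.0118), -0.47 ± 0.10 at 2 h (0.00155) and -0.79 ± 0.10 at 4 h (4.58e-07), each n = 6 and 6. After sham surgery it was -0.46 ± 0.11 at 0.5 h (adjusted p = 0.00368), -0.67 ± 0.11 at 1 h (5.3e-05), -0.46 at 2 h (0.00283) and -0.98 ± 0.11 at 4 h (1.58e-07), each n = 4 and 6. Both sets of differences share the 0 h arrays. Klkb1 was called in 9 of the 14 comparisons between operation groups, and in none of the 4 between PH and sham. These calls held without any single array. With the spike-in covariate the 1 h difference after PH was -0.42 (adjusted p = 0.232), so its size hardly moved from -0.43 although the call was lost. The PH calls at 2 and 4 h held.

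At 4 h after PH, 9 of the 37 genes had fallen by their brightest probe set and 1, Plaur, had risen, where 12% of all probe sets fell and 11.5% rose. The median difference of the 37 from 0 h was -0.11, and that of all probe sets 0.02. The genes that fell belong to several roles: Klkb1 and F13b among the contact and other coagulation factors, F2, Proc and F7 among the 6 vitamin K-dependent factors, Serpind1 among the 2 coagulation inhibitors, C9 of the terminal complement, Mbl2 of the lectin pathway and Plg. None of the 4 complement regulators, neither of the 2 measured C3 convertase components and none of the fibrinogen chains passed. In the same livers 10 of 20 acute phase genes outside the members were higher and none lower (11.5% and 12% of all probe sets), with a median difference of 0.64. In sham livers the acute phase genes were higher too, while the members that fell were in part others. The mean of these 20 genes was 9.47 at 0 h, 11.22 at 4 h after PH and 11.48 at 4 h after sham surgery. By their brightest probe set, 8 members were lower and 2 higher than 0 h at 4 h after sham surgery, against 14.3% and 17% of all probe sets. Of these, Klkb1, F13b and Serpind1 had also fallen after PH. Cd59a, F5, F9, Masp2 and Cfb, for which no direction is given below, had not. The other genes that fell after PH were not called lower after sham. Among them F2, C9 and Plg were called lower in PH than in sham livers.

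C9, the gene of the pore-forming component of the membrane attack complex, read 11.03, 10.82 and 10.94 in young and 10.73, 10.81 and 10.94 in old livers at 0 h. At 4 h after PH it read 10.89, 10.52 and 10.59 in young and 10.23, 10.38 and 10.16 in old livers. The 3 old arrays were the lowest, and 1 young array lay in the 0 h range. C9 differed by -0.42 ± 0.14 from 0 h (adjusted p = 0.028) and by -0.49 ± 0.16 from sham (0.0217). Its call against 0 h was lost in 5 of the 12 fits without 1 array, which left out replicate 1 of young 0 h, replicate 3 of old 0 h, replicate 2 or 3 of young PH 4 h, or replicate 3 of old PH 4 h (adjusted p from 0.056 to 0.0657).

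Mbl2, the gene of a mannose-binding lectin, lay between 8.86 and 9.23 at 0 h. It read 8.63, 8.66 and 8.80 in young and 8.65, 8.76 and 8.40 in old livers 4 h after PH, all below 0 h. The difference was -0.39 ± 0.11 (adjusted p = 0.00573), and that between 4 and 2 h was -0.42 ± 0.11 (adjusted p = 0.00769). Sham livers at 4 h read 9.02 and 8.62 in young and 8.89 and 9.14 in old livers, and PH differed from sham by -0.27 (adjusted p = 0.0941). Mbl1, the gene of the related lectin, was higher than at 0 h by 0.48 ± 0.12 at 4 h after sham surgery (adjusted p = 0.00267). It read 8.66 and 8.73 there in young and 8.95 and 9.10 in old livers, all above the 0 h range of 8.18 to 8.60, and the difference of PH from sham was -0.40 ± 0.12 (adjusted p = 0.0136).

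F13b, the gene of the carrier subunit of the fibrin-stabilising factor XIII, read 8.56, 8.99 and 8.61 in young and 9.11, 9.08 and 8.86 in old livers at 0 h. It read 8.65, 8.58 and 8.56 in young and 8.47, 8.53 and 8.40 in old livers 4 h after PH, so the young arrays overlapped with 0 h and the old ones did not. The difference over both ages was -0.33 ± 0.08 (adjusted p = 0.0018), and in sham livers -0.48 ± 0.09 (0.000112). Serpind1, which encodes the thrombin inhibitor heparin cofactor II, ran from 11.03 to 11.32 at 0 h and from 10.82 to 10.93 at 4 h after PH, with no overlap. It differed by -0.32 ± 0.07 after PH (adjusted p = 0.00111) and by -0.35 ± 0.08 after sham (0.00155). Proc, which encodes the anticoagulant protein C, differed by -0.23 ± 0.05 after PH (adjusted p = 0.00162) and by -0.11 ± 0.06 after sham (0.159) on its brighter probe set. Its dimmer probe set differed the other way after PH, by 0.19 ± 0.08, without passing (adjusted p = 0.0673), so the direction for Proc rests on 1 of 2 probe sets.

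The calls for Klkb1, F13b, Mbl2, Proc and Serpind1 at 4 h after PH held in all 12 fits without 1 array and with the spike-in covariate. The spike-in mean differed little there, at 10.03 against 9.74 at 0 h, so the covariate is a weak check at this time. F2 was lost only without young 0 h replicate 2 (-0.21, adjusted p = 0.0628). Plg and F7 passed narrowly (adjusted p = 0.0345 and 0.0492) and held in 5 and 4 of the 12 fits.

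In old livers 10 of the 45 member probe sets were called at 4 h after PH, against 14.9% of all, and in young livers 1, against 7.66% of all. Klkb1 differed by -0.96 ± 0.14 in old (adjusted p = 1.48e-05) and by -0.63 ± 0.14 in young livers (0.00447), each n = 3 and 3. F13b differed by -0.55 ± 0.11 in old livers (adjusted p = 0.000789), Proc by -0.28 ± 0.08 (0.0107), Serpind1 by -0.35 ± 0.10 (0.018) and Mbl2 by -0.48 ± 0.15 (0.0252). F2 differed by -0.35 ± 0.11 (adjusted p = 0.0295) and C9 by -0.57 ± 0.20 (0.0476), and Plaur was higher by 0.48 ± 0.15 (0.0258). In young livers the differences were -0.30 for Serpind1 (adjusted p = 0.0711), -0.19 for Proc (0.149), -0.31 for Mbl2 (0.241), -0.17 for F2 (0.418) and -0.26 for C9 (0.506), each with the sign seen in old livers.

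A difference between the ages in the response was not shown. In the F test over the 4 PH times none of the 45 member probe sets passed (0% of all probe sets did), and 4 of the members had an unadjusted p under 0.05. The old count fell to 6 without old 0 h replicate 1 or old PH 4 h replicate 1, to 4 without old 0 h replicate 2 and to 2 without old PH 4 h replicate 3, and the young count rose to 2 without young 0 h replicate 2. Of the old calls, Klkb1 and F13b held in all 6 fits without 1 array, Proc in 4, Mbl2 and Serpind1 in 3, F2 and Plaur in 2 and C9 in 0.

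After sham surgery, the transcripts of coagulation factors IX and V were lower than at 0 h at all 4 times. Of the 45 member probe sets, 8 differed from 0 h at 0.5 h (22.3% of all probe sets did), 9 at 1 h (34.5%), 8 at 2 h (30.2%) and 12 at 4 h (31.3%). The 0.5 h count fell to 4 without young sham 0.5 h replicate 1. F9 encodes factor IX, the protease missing in haemophilia B, and F5 encodes factor V, the cofactor of factor Xa.

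F9 read 10.24, 10.45 and 10.33 in young and 10.50, 10.50 and 10.39 in old livers at 0 h. The sham livers read 10.01 and 10.03 (young) and 10.18 and 9.82 (old) at 0.5 h, and 9.85 and 9.94 (young) and 10.10 and 9.82 (old) at 1 h. They read 9.70 and 9.87 (young) and 10.25 and 9.91 (old) at 2 h, and 9.92 and 9.85 (young) and 10.03 and 10.24 (old) at 4 h. Every sham array except old sham 2 h replicate 1 was below every 0 h array. The differences from 0 h were -0.39 ± 0.09 at 0.5 h (adjusted p = 0.00147), -0.47 ± 0.09 at 1 h (0.000109), -0.47 at 2 h (0.000168) and -0.39 ± 0.09 at 4 h (0.00085). In the PH livers F9 lay between 10.16 and 10.92.

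F5 ran from 9.83 to 10.07 at 0 h. It read 9.60, 9.61, 9.58 and 9.21 in the sham livers at 1 h and 9.62, 9.42, 9.46 and 9.42 at 4 h, and again old sham 2 h replicate 1, at 9.84, was the only sham array within the 0 h range. Its differences from 0 h were -0.35 ± 0.08 at 0.5 h (adjusted p = 0.00259), -0.44 ± 0.08 at 1 h (0.000116), -0.37 at 2 h (0.0011) and -0.46 ± 0.08 at 4 h (6.24e-05). The sham calls of F9 and F5 against 0 h held in every fit without 1 array.

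Masp1, a protease gene of the lectin pathway, was lower in sham livers up to 2 h. Against a 0 h range of 7.98 to 8.46, it read 7.87 and 7.96 in young and 7.77 and 7.13 in old sham livers at 1 h. The differences from 0 h were -0.43 ± 0.12 at 0.5 h (adjusted p = 0.0103), -0.51 ± 0.12 at 1 h (0.00165) and -0.35 at 2 h (0.03). At 4 h it was -0.15 (adjusted p = 0.379). The 0.5 h call was lost without young sham 0.5 h replicate 1 (-0.36, adjusted p = 0.086). The 2 h call held in 6 of 10 fits and was lost without old 0 h replicate 2, young sham 2 h replicate 1 or 2, or old sham 2 h replicate 2 (-0.22, adjusted p = 0.281).

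Set directly against sham, PH livers were higher for these 3 genes. F9 was higher by 0.54 ± 0.09 at 0.5 h (adjusted p = 2.8e-05), 0.61 ± 0.09 at 1 h (2.63e-06), 0.45 ± 0.09 at 2 h (0.000225) and 0.27 at 4 h (0.0222). F5 was higher by 0.41 ± 0.08, 0.47 ± 0.08, 0.34 ± 0.08 and 0.35 at the same times (adjusted p = 0.000345, 3.45e-05, 0.00175 and 0.00193). Masp1 was higher by 0.52 ± 0.12, 0.65 ± 0.12 and 0.42 ± 0.12 up to 2 h (adjusted p = 0.00189, 9.89e-05 and 0.008), and differed by -0.13 at 4 h (0.477). The comparisons of PH with sham and of sham with 0 h share the sham arrays.

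Of all members, 9 probe sets differed between PH and sham at 0.5 h (29.2% of all probe sets did), 9 at 1 h (43.5%), 14 at 2 h (34.8%) and 12 at 4 h (23.5%). The 1 h count was 5 without young sham 1 h replicate 1, and the 4 h count was 6 without young sham 4 h replicate 2 and 7 without old sham 4 h replicate 1 or 2. The 4 h call of F9 was lost without young sham 4 h replicate 2 (adjusted p = 0.0793), without old sham 4 h replicate 1 (0.13) and with the spike-in covariate (0.22, adjusted p = 0.0576). At 4 h Cd59a, which encodes a cell-surface inhibitor of the membrane attack complex, was lower in sham than 0 h livers (-0.40 ± 0.11, adjusted p = 0.0049). Vitronectin (Vtn), an adhesive plasma protein, was lower after PH than after sham (-0.32, adjusted p = 0.0317), and so were Cfi (-0.33, 0.0217) and Plg (-0.31 ± 0.07, 0.00101). Plau, which encodes urokinase, was higher in sham than 0 h livers at 4 h (0.26, adjusted p = 0.00584) and lower in PH than sham livers (-0.30 ± 0.07, 0.00227). Of these calls between PH and sham, that of Plau held in all 10 fits without 1 array, that of Cfi in 6 and that of Vtn in 2.

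The lectin pathway genes gave further calls. Mbl1 was higher in sham than in 0 h livers at 0.5 h (0.36 ± 0.12, adjusted p = 0.0293, held in 5 of 10 fits) and at 1 h (0.39 ± 0.12, 0.0111, held in all 10). Mbl2 was lower after PH than after sham at 0.5 h (-0.42 ± 0.12, adjusted p = 0.00849, held in all 10), and so was Proc (-0.22 ± 0.06, 0.00773, held in all 10). Masp2, the gene of the lectin pathway protease that cleaves C4, read 8.25 and 8.10 in young and 8.25 and 8.30 in old sham livers at 4 h, against 8.21 to 8.65 at 0 h, and the ranges overlapped. Its difference was -0.24 ± 0.09 (adjusted p = 0.0397), a call that held in 3 of 10 fits and was lost with the spike-in covariate (-0.23, adjusted p = 0.0503).

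**Figure D3:**
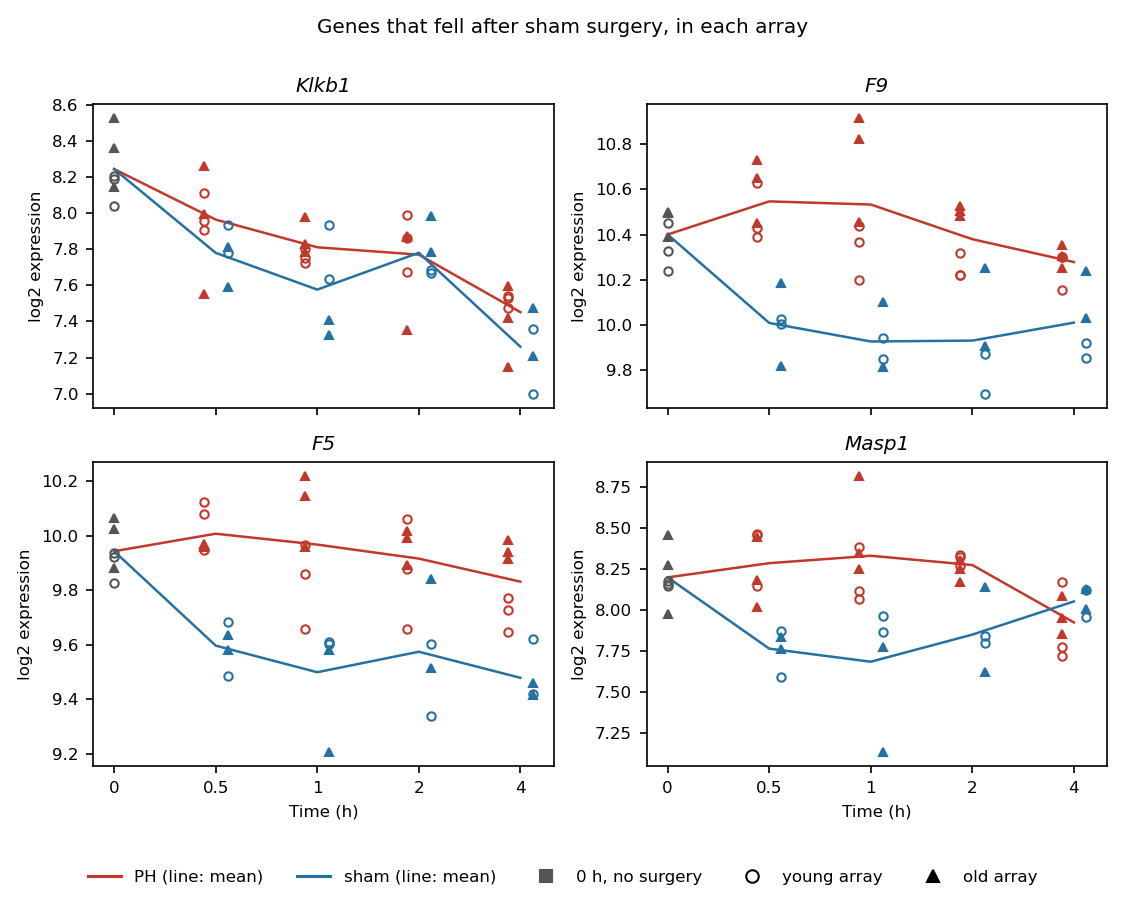
Log2 signal of Klkb1, F9, F5 and Masp1 in every array, by hours after the operation (times equally spaced, not to scale), with PH, sham and 0 h arrays marked apart. Sham arrays of F9 and F5 lie below the 0 h arrays at all times except for 1 old array at 2 h, while Klkb1 is low in PH and sham arrays alike at 4 h.

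With age, all members that passed were higher. Over the mean of the 9 conditions, 11 of the 45 member probe sets were called, against 8.93% of all probe sets. All 11 were higher in old than in young livers, against 5.02% of all, and none was lower, against 3.9% of all. The median difference over the 37 genes was 0.11, and over all probe sets -0.01. At 0 h alone, with 3 arrays at each age, no member passed in limma, against 0.145% of all probe sets, and 3 had an unadjusted p under 0.05: Cfi (0.37), F13b (0.30) and Hc (0.44). The 11 were Pros1, F9 and F2 of the vitamin K-dependent factors, Kng1 and F12 of the contact system, Cfi and Serping1 of the complement regulators, Hc of the terminal complement, C1qb and C1qc, and Plg. No fibrinogen chain, coagulation inhibitor or C3 convertase component passed. The count was 7 without young sham 0.5 h replicate 1, young sham 2 h replicate 2, young sham 4 h replicate 2 or old sham 4 h replicate 1, and 6 without old sham 2 h replicate 1.

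Among the complement regulators, Serping1 encodes the C1 inhibitor, which blocks C1r, C1s, kallikrein and factor XIIa. Its young arrays ran from 11.06 to 11.67 (median 11.28) and its old arrays from 11.36 to 12.23 (median 11.58), n = 23 each. Within each of the 9 conditions every old array was above every young array, and the difference was 0.36 ± 0.05 (adjusted p = 2.01e-05). Cfi encodes factor I, the protease that inactivates C3b and C4b. It ran from 10.57 to 11.33 in young and from 10.88 to 11.76 in old livers (medians 10.91 and 11.29), with the ages apart in 8 of 9 conditions, and differed by 0.36 ± 0.05 (adjusted p = 7.12e-06).

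Hc encodes complement C5, from which the terminal pathway starts. It ran from 9.92 to 10.65 in young livers (median 10.11) and from 10.04 to 11.02 in old livers (median 10.63), and differed by 0.43 ± 0.07 (adjusted p = 0.000102). Its age difference was 0.44 at 0 h and 0.15 at 4 h after PH, where the old arrays read 10.20, 10.27 and 10.18 and the young arrays 10.05, 10.11 and 10.05. Old arrays were above all young arrays in 7 of 9 conditions.

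Pros1 encodes protein S, the cofactor of protein C, and had the largest age difference of the 37 genes, 0.53 ± 0.09 (adjusted p = 9.83e-05). It ran from 6.49 to 7.26 in young livers (median 6.86) and from 6.94 to 8.40 in old livers (median 7.39), with the ages apart in 7 of 9 conditions. Old PH 1 h replicate 3 gave the highest value. Proc, the gene of its partner protein C, differed by -0.01. The other vitamin K-dependent factors that passed were F9, by 0.17 ± 0.04 (adjusted p = 0.00571), and F2, by 0.14 ± 0.04 (0.0222). Kng1, the kininogen gene, differed by 0.17 ± 0.03 (adjusted p = 0.00153), F12 by 0.15 ± 0.05 (0.0383) and Plg by 0.10 ± 0.03 (0.034). Kng1 was higher in old livers in 8 of 9 conditions, the exception being 0 h (-0.05).

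The calls for Cfi, F9, Hc, Kng1, Pros1 and Serping1 held in all 46 fits without 1 array. F2 was lost in the 2 fits without young sham 0.5 h replicate 1 (adjusted p = 0.0524) or old sham 2 h replicate 1 (0.0559), and Plg and F12 held in 35 and 26 fits. In the same livers, 15 of the 20 acute phase genes outside the members were higher with age and none lower, against 5.02% and 3.9% of all probe sets. Their median difference was 0.53. Arrays of a group lay far apart at some times. The mean of the 20 read 12.07, 9.50 and 9.45 in old livers at 0.5 h after PH, and 11.15 and 9.59 after sham. In young livers at 1 h after PH it read 10.98, 9.56 and 9.61.

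**Figure D4:**
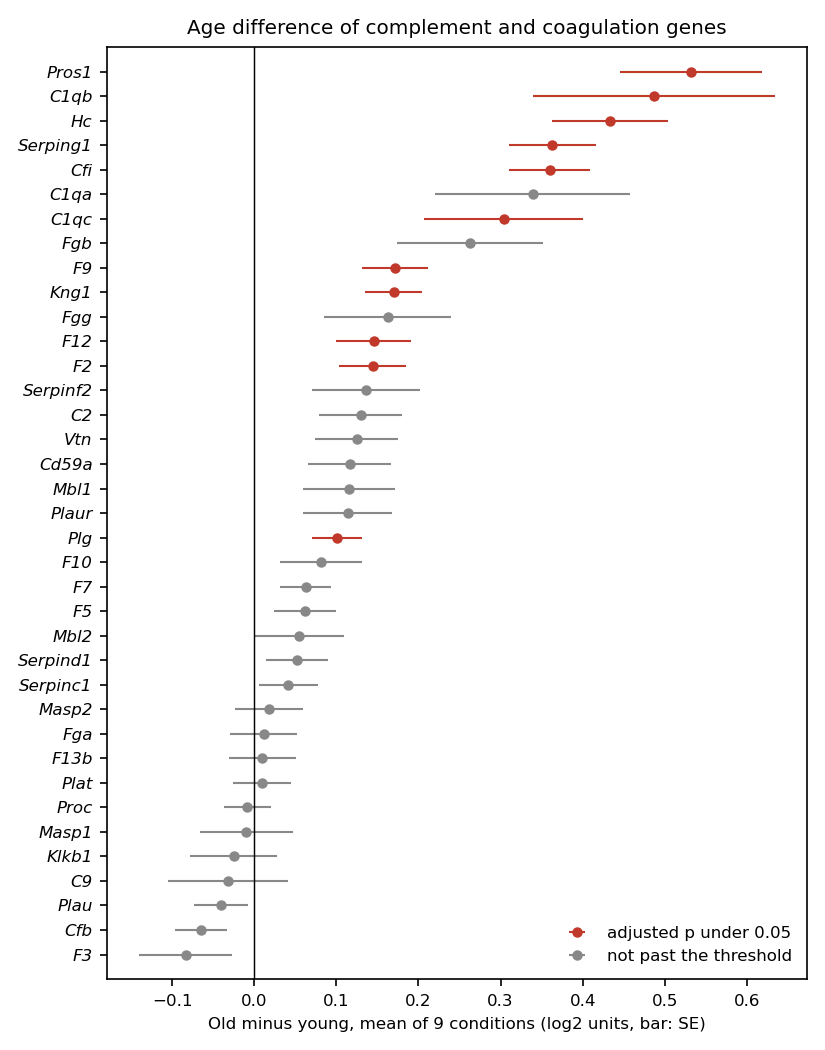
Old minus young log2 signal for each of the 37 measured genes, as the mean of the 9 conditions (dot) with its standard error (bar). Pros1, C1qb and Hc lie farthest to the right, at 0.53, 0.49 and 0.43.

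C1qb, C1qc and 5 of 12 measured macrophage markers were higher with age. C1qa, C1qb and C1qc encode the chains of C1q, and in liver they are transcripts of Kupffer cells. C1qb ran from 6.51 to 7.79 in young livers (median 7.05) and from 5.85 to 8.98 in old livers (median 7.58). Its age difference was 0.49 ± 0.15 (adjusted p = 0.032), C1qc differed by 0.30 ± 0.10 (0.0419), and C1qa differed by 0.34 without passing (0.0685). Old livers were higher in 8 of 9 conditions for the brightest probe set of each, the exception being sham at 2 h. The dimmer C1qb probe set differed by 0.06 with age and was not called. It was higher in old livers in 5 of 9 conditions, so the C1qb age difference rests on 1 of 2 probe sets. The call of C1qb held in 38 of 46 fits without 1 array, with a difference of 0.36 (adjusted p = 0.0794) without old sham 1 h replicate 2, and that of C1qc in 18.

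The mean of 12 measured Kupffer cell and macrophage markers ran from 6.36 to 6.997 in young livers (mean 6.62) and from 6.35 to 8.23 in old livers (mean 6.996). Of the 12, 5 were higher with age (Lyz2 by 0.95, Ctss by 0.81, Cd5l by 0.65, Tyrobp by 0.38 and Csf1r by 0.30) and none was lower. The array with the highest C1q values, old PH 1 h replicate 3 (C1qa 9.04, C1qb 8.98, C1qc 10.08), had the highest marker mean, 8.23. The array with the lowest C1qb value, old sham 1 h replicate 1 (5.85), had the lowest marker mean, 6.35. In whole liver, more macrophages and more RNA per macrophage cannot be told apart, and the part of the marker shift in the C1q differences was not tested.

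At 1 h C1qb was higher after PH than after sham by 0.81 ± 0.32 (adjusted p = 0.0363). The sham arrays there read 6.76 and 6.54 in young livers and, far apart, 5.85 and 8.08 in old livers, and the PH arrays 7.79, 7.05 and 7.35 in young and 7.42, 7.15 and 8.98 in old livers. The difference was 0.26 (adjusted p = 0.517) without old sham 1 h replicate 1, 0.53 (0.152) without old PH 1 h replicate 3 and 1.37 without old sham 1 h replicate 2. With the spike-in covariate it was 0.79 (adjusted p = 0.0933). The mean of the macrophage markers was 7.08 at 1 h after PH and 6.63 after sham, and the arrays overlapped. Old PH 1 h replicate 3 read 8.23, and no other PH array of that time was above 7.06. Old sham 1 h replicate 2 read 7.28, and no other sham array of that time was above 6.51.

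**Figure D5:**
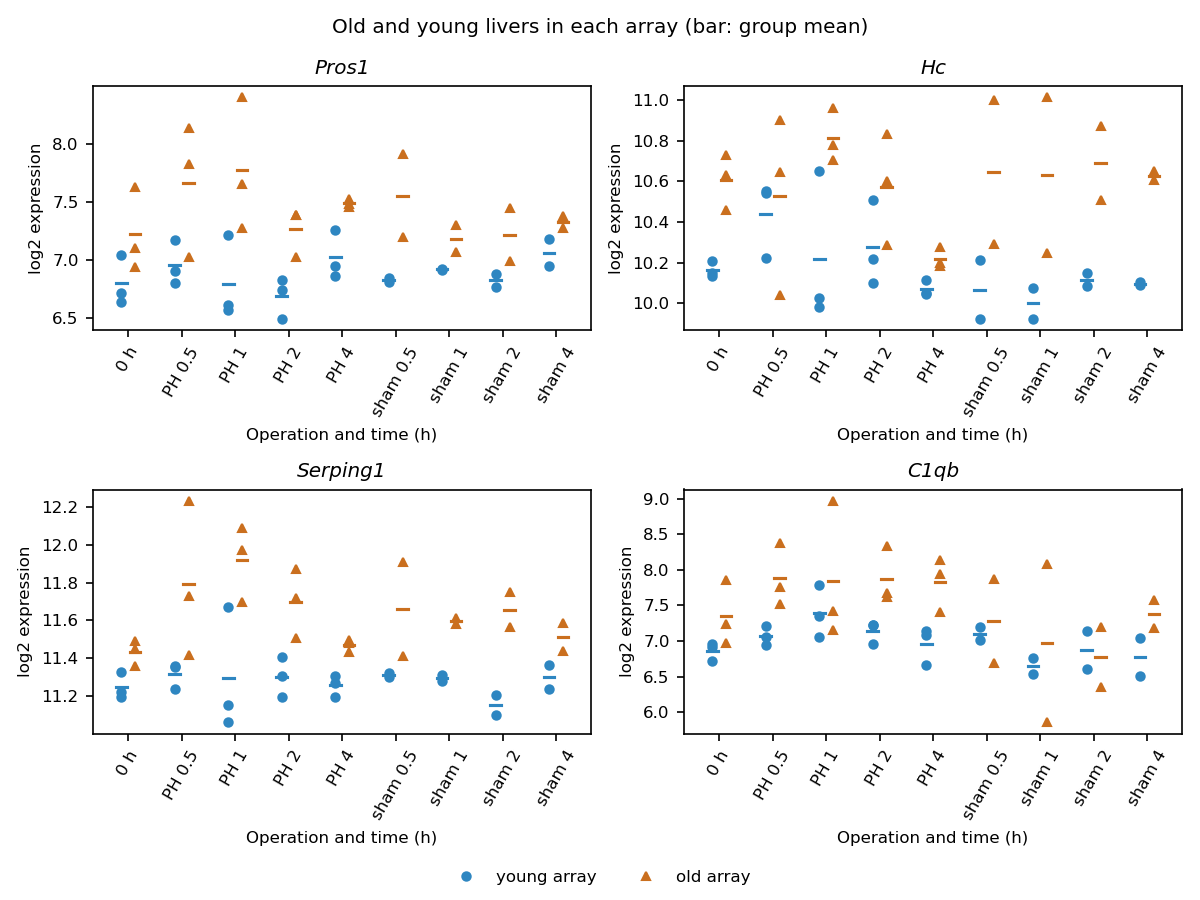
Log2 signal of Pros1, Hc, Serping1 and C1qb in every array, for the 9 conditions (0 h, 4 PH times and 4 sham times), young and old livers side by side. For Serping1 all old arrays lie above all young arrays within each condition, while C1qb spreads from 5.85 to 8.98 in the old 1 h groups.

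Of the 37 genes, 31 (83.8%) passed in at least 1 of the 17 planned comparisons by their brightest probe set, close to the 78.3% of all 8251 genes that did, and 6 passed in none. These were C1qa (largest difference 0.51, adjusted p = 0.103), C2 (0.27, 0.0603), F10 (-0.26, 0.22), Fgb (0.46, 0.279), Plat (0.20, 0.173) and Serpinf2 (-0.36, 0.0553). F10 encodes factor X, Plat the tissue plasminogen activator and Serpinf2 the plasmin inhibitor. After Klkb1, the genes called most often among the 14 comparisons between operation groups were F5 and F9 (8 each), Masp1 and Cfb (6 each) and F2 (5).

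Probe sets of the same gene did not always move together. Cfb, the gene of complement factor B, has 2 dim probe sets. At 0.5 h after sham surgery the brighter one was lower than at 0 h (-0.19 ± 0.07, adjusted p = 0.0407) and the dimmer one higher (0.28), so no direction is given for this gene. The dimmer Proc probe set was higher in sham livers at each time (0.37, 0.42, 0.40 and 0.43) while the brighter one differed by 0.05, -0.07, 0.01 and -0.11. The dimmer Serpinf2 probe set was called higher at 4 h after PH (0.25, adjusted p = 0.0459) and the brighter one differed by -0.20. Both F7 probe sets were lower at 4 h after PH (-0.16 and -0.29). A very dim C2 probe set was called in several comparisons, among them PH at 4 h (0.40, adjusted p = 0.00355), where the brighter C2 probe set differed by -0.10.

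Other genes of the pathways gave calls in both directions. At 2 h after PH, 3 of 29 other coagulation genes were higher and 4 lower, against 5.74% and 7.08% of all probe sets. Thbd, which encodes the thrombin receptor thrombomodulin, was higher by 0.85, and the plasmin-binding pair S100a10 and Anxa2 by 0.56 and 0.35, while Hrg, the gene of histidine-rich glycoprotein, was lower (-0.43). At 4 h 4 were higher and 5 lower, against 11.5% and 12% of all, with Thbd higher by 1.31, S100a10 by 0.85 and Serpina10, an inhibitor of factor Xa, by 0.86, and with Tfpi2 (-0.51), Hrg (-0.44) and the vitamin K reductase gene Vkorc1 (-0.44) lower.

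Of 21 other complement genes, 2 were higher and 3 lower at 4 h after PH, against the same 11.5% and 12%. Cd93 was higher by 0.94 and Itgb2, the common chain of the complement receptors of leukocytes, by 0.42, while Cfhr2 (-0.39), Cd59b (-0.25) and C1ra (-0.21) were lower. With age 4 of the 21 were higher and 1 lower, against 5.02% and 3.9% of all probe sets, among them C4bp (0.39) and Clu (0.17), which encode inhibitors of complement, and Cr2 (-0.13). Of the 29 other coagulation genes, 2 were higher with age, Serpina10 (0.41) and Hrg (0.27), and 1 lower, F8 (-0.13).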

How the data were processed

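Gene expression was measured in 46 liver RNA samples on Affymetrix U74v2 mouse arrays. The values are log2 signals per probe set, deposited by the authors and made with RMA per the submitters' processing notes, whose version is not given in the sources used here. RMA gives arrays a common distribution, so a shift shared by all genes would not be seen. Precision is limited by how few arrays there are. Of 12488 probe sets 66 are controls. Of the 12422 tested, the platform table gives 10833 a single symbol, 396 several and 1193 none.

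A limma 3.58.1 model (R 4.3.3) with 18 group means was fitted to all arrays and tested by contrasts, with Benjamini-Hochberg adjustment over 12422 probe sets and a threshold of 0.05. A gene is given by its brightest probe set. The text names members that passed, and up to 3 pathway genes in each direction by size. The code was tested on simulated data. Members and lists were chosen with earlier results of these data known. Alternatives included left-out arrays, array weights, trend and robust moderation, median centring, filters on probe sets, the compared groups alone, a replicate block and a spike-in covariate. On average, arrays with the same replicate number deviated hardly more alike (mean correlation 0.00600) than others (-0.00287).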

Additional observations from a re-analysis of the deposited data

Results flagged for a closer look

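Of the member genes, 2 moved in opposite directions in young and old livers at 4 h after PH, in every array. Of all 8251 genes, 257 (3.11%) did so by the same measure, against 5.41% of the 37 members, and nothing particular to the members is read from this count. For Fga, the fibrinogen alpha chain gene, the PH arrays lay 0.045 to 0.2319 above the young 0 h mean and, in old livers, at -0.1787 to -0.0157 from the old 0 h mean. The difference of the changes, old minus young, was -0.2213. For Kng1, the kininogen gene, the mean change was -0.1088 in young and 0.0963 in old livers, a difference of 0.2051. The difference at this single time was not tested. limma's F test over all PH times gave an adjusted p of 0.814 for Fga and 0.737 for Kng1.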

How the results depend on the processing

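No called member changed direction under any alternative run. Counts are of the 45 member probe sets past the threshold. With array weights the count was 4 in place of 1 for PH at 1 h against 0 h, 2 in place of 1 for PH at 4 h in young livers, 20 in place of 12 for sham at 4 h, 4 in place of 0 for old against young at 0 h, and 1 in place of 0 for sham at 4 h against 2 h, which was also 1 with the compared groups fitted alone. With the spike-in covariate it was 0 in place of 1 for PH at 1 h, 1 in place of 8 for PH at 2 h, 8 in place of 14 for PH against sham at 2 h and 0 in place of 13 for PH at 4 h against 2 h. With 1 probe set per gene it was 5 in place of 9 for PH against sham at 1 h and 5 in place of 8 for sham at 2 h, which was also 5 without probe sets whose suffix marks cross-hybridisation. The other alternatives kept each count within 1.5 times. Among them was leaving out 2 arrays that stood apart, young 0 h replicate 3 and old PH 0.5 h replicate 3 (chosen after seeing the data). For old against young over all conditions, a fit of the compared groups alone is the same fit.

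Leaving out 1 array at a time, the count ran from 0 to 0 for PH at 0.5 h, from 1 to 1 at 1 h, from 4 to 9 at 2 h and from 9 to 14 at 4 h, from 1 to 2 in young and from 2 to 9 in old livers at 4 h. It ran from 7 to 13, 5 to 11, 10 to 14 and 6 to 12 for PH against sham, and from 4 to 8, 7 to 11, 6 to 9 and 9 to 15 for sham against 0 h, at 0.5, 1, 2 and 4 h. It ran from 6 to 14 for age over all conditions, from 5 to 13 for PH at 4 h against 2 h, and from 0 to 0 for old against young at 0 h, the F test, sham at 4 h against 2 h and the difference of PH and sham.

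With the replicate number as a block the counts were 0, 1, 8 and 12 for PH against 0 h, 8, 8, 12 and 11 for PH against sham, 7, 8, 8 and 12 for sham against 0 h, 1 and 10 in young and old livers at 4 h, 13 for age over all conditions and 0 at 0 h. The labels do not say whether arrays of the same number belong together. In 13 of 153 pairs of groups all same-numbered arrays correlated over 0.1. No expected number was worked out, so pairing within some groups is not settled. With 2 or 3 arrays in a group, and with F3, Plat and Plau dim, small changes may not be detected.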
